A study of Homo sapiens and Mus musculus with 56 samples.

Results

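The genes described here are ABCA5, ABCA6, ABCA8, ABCA9 and ABCA10, which lie side by side on human chromosome 17. They were taken by name, as were the mouse counterparts Abca5, Abca6, Abca8a, Abca8b and Abca9. They make up 5 of the 18417 genes measured on the human arrays and 5 of the 19938 genes measured on the mouse arrays. Each was read by 1 probe set. ABCA6 was picked because it was among the genes that increased most in U87M2 human cells given V-4084, so the values of the 5 human genes in that contrast are a description and carry no test. Close paralogs can share probe sequence, and the probe sequences were not used here, so signal from a neighbouring paralog cannot be told apart.

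ABCA proteins are full-size ATP-binding cassette transporters that use ATP to move lipids across or between the leaflets of membranes. Their best-known relative, ABCA1, loads cholesterol and phospholipid onto apolipoprotein A-I. ABCA6, ABCA8, ABCA9 and ABCA10 form a subgroup of close relatives with little-studied substrates, and ABCA8 has been linked to cholesterol efflux and to myelin lipids. ABCA5, at the edge of the cluster, sits in lysosomes and late endosomes. Mice carry Abca8 as a pair of neighbouring genes, Abca8a and Abca8b, and lack a counterpart of ABCA10.

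The 56 arrays cover 5 glioblastoma lines (DBM2, SF295, U118, U251M2 and U87M2), each with a vehicle group and a V-4084 group. V-4084 is a small molecule that the labels describe as selective for the MET kinase. The 28 human arrays are labelled as cells treated in vitro for 7 days with DMSO or with V-4084, which was kept as a 0.01 M stock in DMSO (no source used here gives the concentration reached in culture). SF295 had 2 human arrays per group and every other line 3. The 28 mouse arrays are labelled as tumours grown under the skin of nude mice, which lack a thymus and T cells but keep macrophages, fibroblasts and vessels, from 500000 inoculated cells in 100 ul of PBS. These mice received V-4084 at 30 mg/kg, or its vehicle (0.05% Tween 80 in 0.5% MC 400), also over 7 days. Mouse groups had 3 arrays, except SF295 vehicle and U251M2 V-4084, which had 2. A mouse array reads the host's own cells in the tumour, and binding of human tumour RNA to its probes was not tested. The labels do not say whether repeats were separate cultures or animals, so p-values measure the spread between these samples, which may be technical. For 3 human arrays the title says V-4084 on DBM2 but other fields say SF295; the title was followed. Over all human genes, each of the 3 lay nearest to the DBM2 vehicle mean (mean absolute log2 difference 0.203, 0.490 and 0.118, against 0.387, 0.575 and 0.375 from SF295).

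Array medians ran from 6.63 to 6.87 on human arrays and from 6.11 to 6.31 on mouse arrays, on the log2 scale. Of the human V-4084 arrays, 3 had a narrow spread of values (SD 1.90 for SF295 repeat 2, 1.75 for DBM2 repeat 2 and 1.90 for U251M2 repeat 1), against at least 2.03 on every human vehicle array. The mean of 8 glial and neural markers in human vehicle cells ran from 6.03 in U118 and 6.26 in U87M2 to 9.67 in U251M2.

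In the RefSeq annotation (GRCh38.p14), the cluster runs from ABCA8 (chr17:68867289-68955392) through ABCA9 (chr17:68974488-69078977), ABCA6 (chr17:69078702-69141895) and ABCA10 (chr17:69148007-69244848) to ABCA5 (chr17:69244311-69327133). It spans 460 kb, and 0 other protein-coding genes lie wholly inside it. The ends of ABCA9 and ABCA6 overlap by 276 bases, and those of ABCA10 and ABCA5 by 538 bases. On one side the nearest listed gene, FAM20A, ends 266 kb away, and on the other MAP2K6 starts 87.6 kb away.

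RefSeq start-site windows, each from 250 bases before to 50 after an annotated start, were matched for 4 of the 5 human genes, with 2 windows for ABCA10 and no entry for ABCA8. The windows of ABCA6, ABCA5 and one of ABCA10 lie at the outer start of the gene, while that of ABCA9 lies 18.05 kb inside the gene and the other of ABCA10 lies 16.024 kb inside. The windows of ABCA6 and ABCA5 are printed 5′ to 3′ on the minus strand, to show how unlike the starts of these relatives are: the ABCA6 window is AT-rich and the ABCA5 window is GC-rich. Capitals mark matches to GTAAACAA or CAAAACAA on either strand, letters that FOXO factors are known to bind. These motifs were chosen after the ABCA6 sequence had been seen.
ABCA6, chr17:69141846-69142145: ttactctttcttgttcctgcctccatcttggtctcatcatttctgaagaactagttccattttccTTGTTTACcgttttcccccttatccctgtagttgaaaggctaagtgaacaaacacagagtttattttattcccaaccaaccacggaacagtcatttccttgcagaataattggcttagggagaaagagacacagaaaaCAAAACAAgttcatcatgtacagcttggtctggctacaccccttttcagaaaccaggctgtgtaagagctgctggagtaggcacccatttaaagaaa
ABCA5, chr17:69327084-69327383: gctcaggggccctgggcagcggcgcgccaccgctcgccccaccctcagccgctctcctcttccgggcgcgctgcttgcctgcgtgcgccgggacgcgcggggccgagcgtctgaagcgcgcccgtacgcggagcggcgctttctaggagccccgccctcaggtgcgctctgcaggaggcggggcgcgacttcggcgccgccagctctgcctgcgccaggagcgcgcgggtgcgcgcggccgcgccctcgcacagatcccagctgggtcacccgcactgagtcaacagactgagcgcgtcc

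The ABCA6 window was 41.7% G and C with 2 CpG dinucleotides, and the window inside ABCA9 (chr17:69060878-69061177) 39.7% with 1. The ABCA10 windows were 25% with 3 at the gene's start (chr17:69244799-69245098) and, inside the gene, 32.3% with 1 (chr17:69228775-69229074). The ABCA5 window, at 76.3% with 45 CpG dinucleotides, had the form of a CpG-island start. The median over all 35116 windows of this length was 58.7% with 14. In the ABCA6 window GTAAACAA was read as TTGTTTAC, 185 bases before the start, and CAAAACAA lay 47 bases before it. GTAAACAA was found in 0.954% of all windows, CAAAACAA in 1.68%, and both in 10 windows, or 0.0285%. Because the motifs were chosen from the ABCA6 sequence, these shares cannot measure how unusual that window is. Neither was present in the ABCA9, ABCA10 or ABCA5 windows, which says only that these letters are not there; the outer start of ABCA9 was not searched.

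In U87M2 human cells the 5 genes were higher with V-4084, steeply for ABCA6 and ABCA8 and less so towards ABCA5. ABCA6 was at 5.37, 5.18 and 5.59 on the vehicle arrays and at 7.93, 7.94 and 8.09 on the V-4084 arrays. The difference was 2.60 on the log2 scale (SE 0.15), or 6.08-fold. ABCA6 values in the 3 treated U87M2 arrays lay above those of all other human arrays, which reached 5.78. The means of 4 of the 5 human genes, all but ABCA5, lie in the lowest 25% of genes, and whether the vehicle values are above background was not analysed.

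ABCA8 was at 5.96, 4.82 and 6.20 with vehicle and at 7.88, 8.16 and 8.26 with V-4084, a difference of 2.44 (SE 0.24), or 5.42-fold. The vehicle arrays were uneven, with repeat 2 lowest, and without that array the difference was 2.02. ABCA9 was at 5.04, 4.83 and 5.08 with vehicle and at 6.48, 6.26 and 6.70 with V-4084, a difference of 1.50 (SE 0.13), or 2.82-fold. Both genes thus had treated arrays clear of every vehicle array of the line.

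ABCA10 was at 4.44, 4.43 and 4.40 with vehicle and at 5.19, 4.88 and 5.25 with V-4084, a difference of 0.68 (SE 0.12). ABCA5, the lysosomal relative at the cluster's edge, was at 6.05, 6.60 and 6.46 with vehicle and at 6.64, 6.68 and 6.78 with V-4084. Its difference was 0.33 (SE 0.18), and its treated arrays lay only just above the highest vehicle array. The vehicle and V-4084 arrays did not overlap for 5 of 5 genes, where 18.0% of all genes were separated in that direction. In this contrast limma called 15.0% of all genes, 5.37% as higher. Because the choice of ABCA6 used these arrays, nothing is read from either share. The median difference of the 5 genes was 1.50, and that of all genes 0.02.

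**Figure D1:**
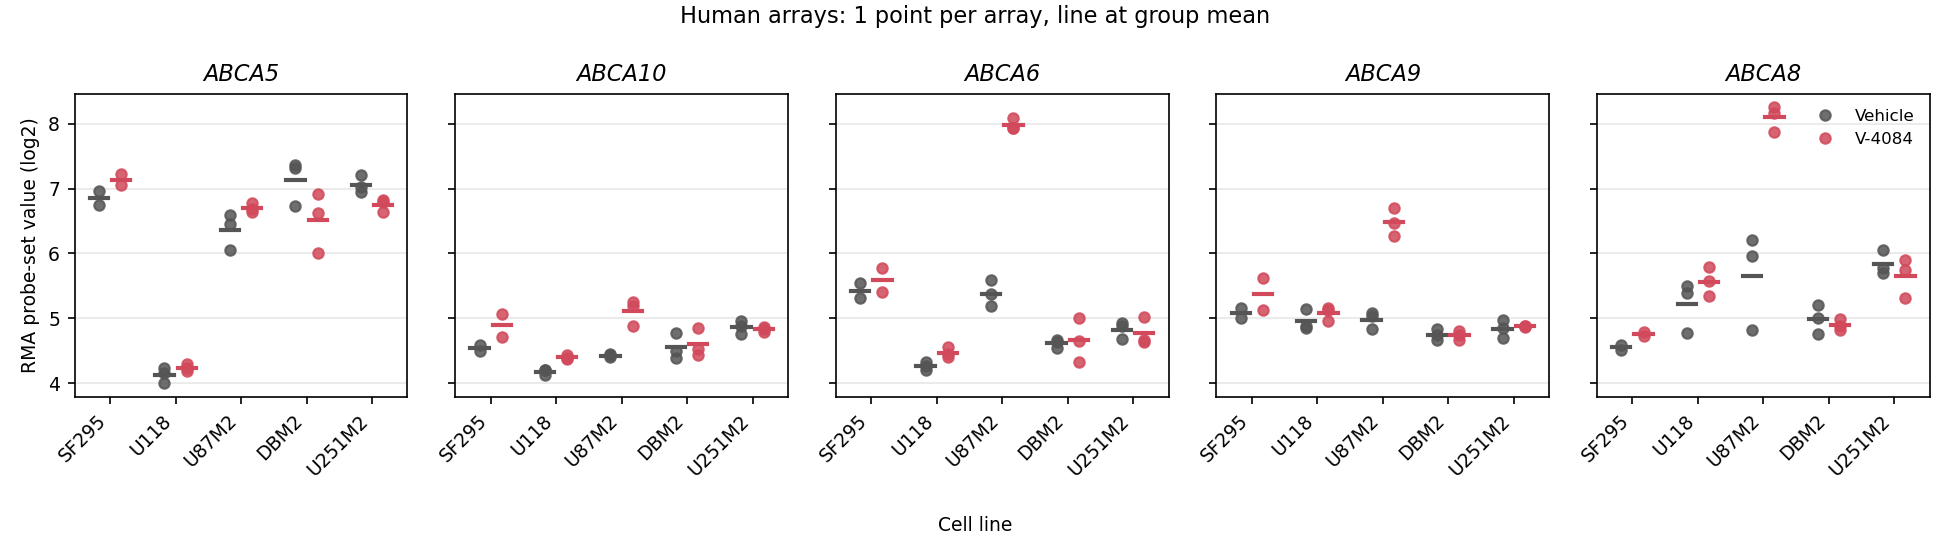
Log2 probe-set values of the 5 human genes, 1 panel per gene, with 1 point per array, cell lines on the horizontal axis, vehicle in grey and V-4084 in red, and a short line at each group mean. ABCA6, ABCA8 and ABCA9 stand apart in treated U87M2 cells (group means 7.99, 8.10 and 6.48), while ABCA5 is lowest in U118.

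The surroundings of the cluster were described through 8 neighbouring genes, of which 7 were measured. In U87M2 human cells 1 of 7 rose and 0 fell, where 15.0% of all genes were called, 5.37% as higher. The gene was MAP2K6, a kinase of the p38 pathway and the neighbour beyond ABCA5, with a difference of 0.42 (SE 0.12, limma adjusted p = 0.0192). The other 6 ranged from -0.002 for KCNJ16, a potassium channel, upward to values below that of MAP2K6, and the median of the 7 was 0.24. The 4 genes from ABCA8 to ABCA10 thus had larger differences (0.68 to 2.60) than each measured neighbour, as a description of this contrast. ABCA5 (0.33, SE 0.18) did not, since it lay below MAP2K6, so the values show no step at that edge of the cluster.

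**Figure D2:**
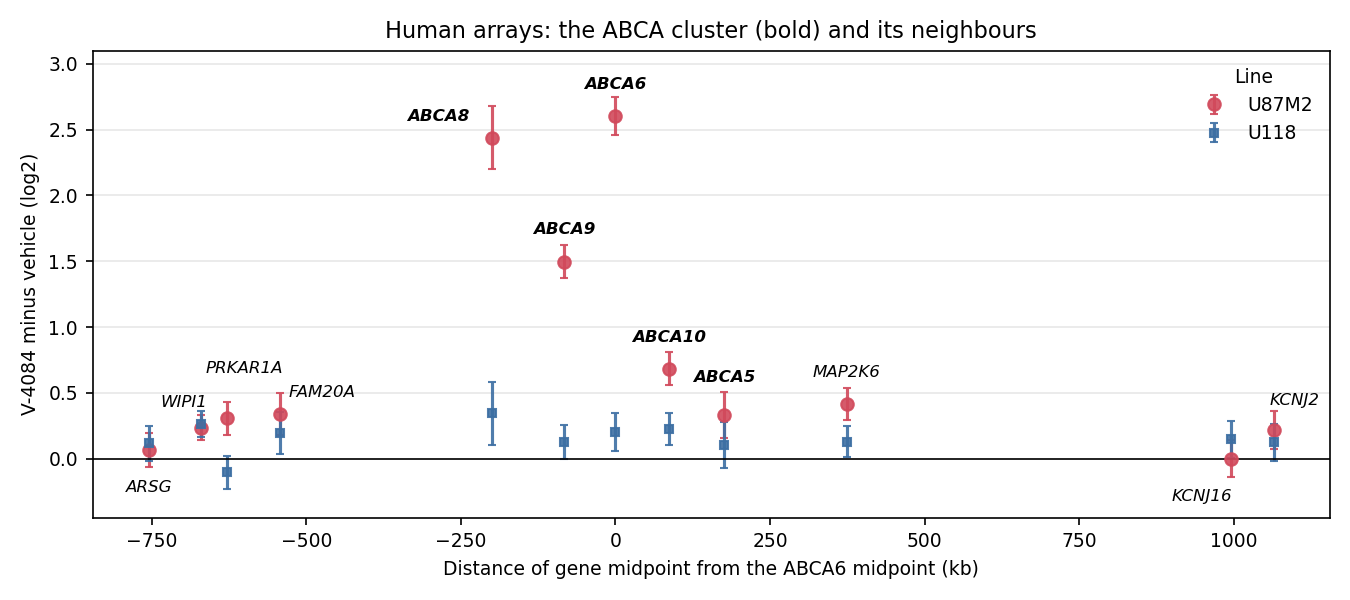
V-4084 minus vehicle on human arrays (log2, points with SE bars) against the distance of each gene's midpoint from that of ABCA6 (kb), for the cluster in bold and its measured neighbours. In U87M2 (red circles) ABCA6, ABCA8 and ABCA9 differ by 1.50 to 2.60 and ABCA5 by 0.33, while in U118 (blue squares) the 5 cluster genes lie between 0.10 and 0.35.

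In the other 4 lines no cluster gene passed the test with V-4084 in human cells. In SF295, 0 of 5 were called by limma (0% of all genes called; 1 of 5 with an unadjusted p under 0.05). ABCA6 was at 5.31 and 5.54 with vehicle and at 5.40 and 5.78 with V-4084, so the groups overlapped (difference 0.17, SE 0.18, adjusted p = 0.796). ABCA10 was at 4.59 and 4.50 with vehicle and at 4.72 and 5.07 with V-4084 (0.35, SE 0.15, adjusted p = 0.548). The arrays did not overlap for 3 genes, ABCA5, ABCA8 and ABCA10, all higher, against 12.3% of all genes. SF295 V-4084 repeat 2 is an array with a narrow spread. Without the 3 such arrays, a fit that leaves only repeat 1 in that group, the difference was 0.05 for ABCA9 in place of 0.30, and 0.17 for ABCA10. Without SF295 V-4084 repeat 1 the ABCA9 difference was 0.55, in a fit that leaves only the narrow-spread repeat 2 in that group.

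In U118, 0 of 5 genes were called (0.755% of all genes called; 0 of 5 with an unadjusted p under 0.05). ABCA6 was at 4.33, 4.26 and 4.21 with vehicle and at 4.56, 4.44 and 4.40 with V-4084 (0.20, SE 0.15, adjusted p = 0.625). Its groups did not overlap, nor did those of ABCA10 (4.20, 4.13 and 4.20 against 4.39, 4.38 and 4.44), where 13.7% of all genes were separated in that direction. ABCA8 had the largest of these differences, 0.35 (SE 0.24, adjusted p = 0.610), with overlapping groups.

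In DBM2, 0 of 5 genes were called (0% of all genes called; 1 of 5 with an unadjusted p under 0.05). ABCA5 was at 7.36, 7.31 and 6.74 with vehicle and at 6.62, 6.01 and 6.91 with V-4084, with a difference of -0.63 (SE 0.18, adjusted p = 0.111). It passed only without DBM2 V-4084 repeat 3 (-0.82, adjusted p = 0.0091), a fit in which 4537 genes were called in this line in place of 0. Without the narrow-spread arrays its difference was -0.37 (adjusted p = 0.455). ABCA6 was at 4.64, 4.54 and 4.66 with vehicle and at 4.32, 5.00 and 4.65 with V-4084, a wider spread with no shift of the mean beyond it (0.05, SE 0.15).

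In U251M2, 0 of 5 genes were called (0% of all genes called; 0 of 5 with an unadjusted p under 0.05). ABCA6 was at 4.68, 4.88 and 4.92 with vehicle and at 5.02, 4.64 and 4.66 with V-4084 (-0.05, SE 0.15, adjusted p = 0.915). ABCA5 was at 6.96, 7.02 and 7.21 with vehicle and at 6.64, 6.82 and 6.80 with V-4084 (-0.31, SE 0.18, adjusted p = 0.722). Its treated arrays all lay below its vehicle arrays, as did those of 6.99% of all genes.

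Averaged over these 4 lines, 0 of 5 genes were called (0.288% of all genes called; 1 of 5 with an unadjusted p under 0.05). The differences were 0.09 for ABCA6 (SE 0.08, adjusted p = 0.464), 0.07 for ABCA8 (SE 0.13), 0.11 for ABCA9 (SE 0.07), 0.15 for ABCA10 (SE 0.07, adjusted p = 0.197) and -0.14 for ABCA5 (SE 0.09). The median of the 5 was 0.09, and that of all genes 0.01. Whether the effect in U87M2 differs from that in the other human lines was not tested, because the genes were chosen on U87M2.

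**Figure D3:**
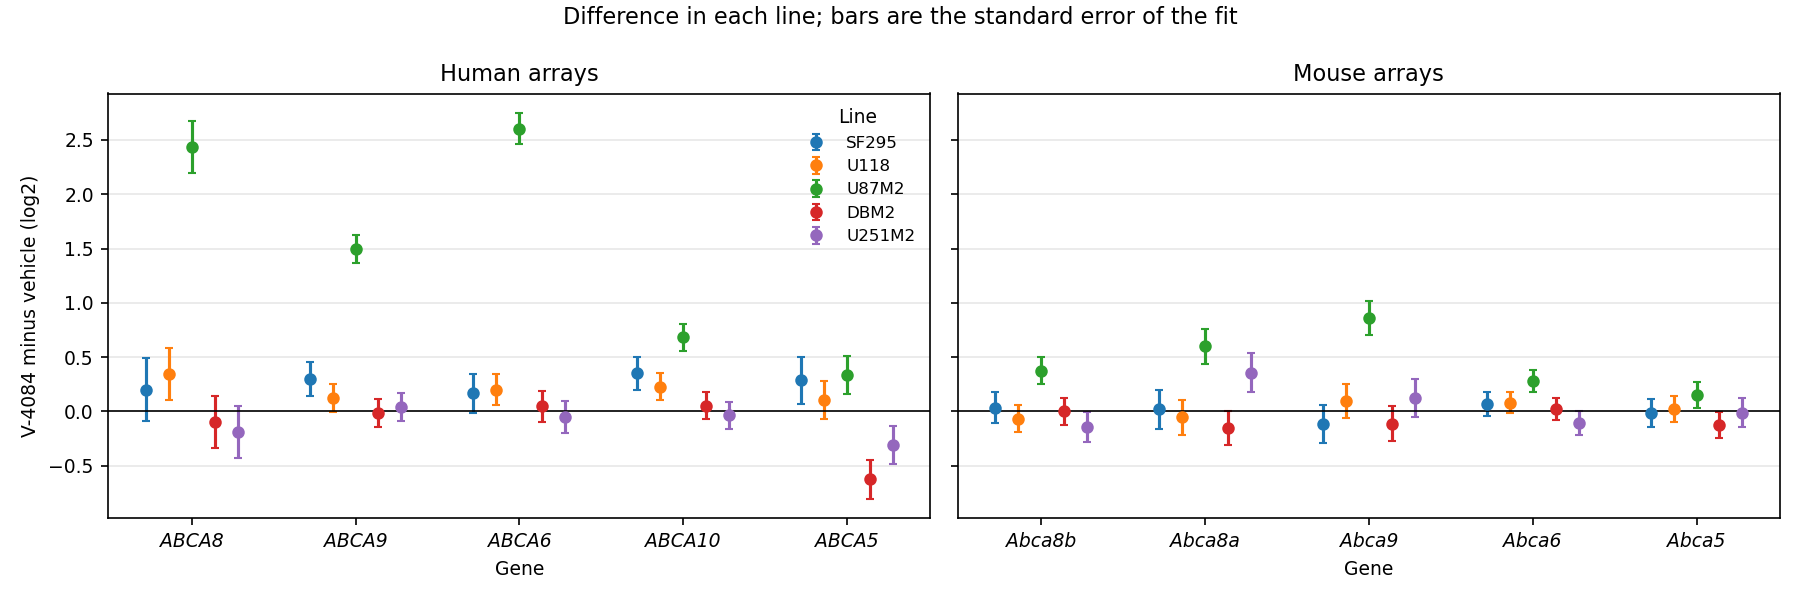
V-4084 minus vehicle (log2, points with SE bars) for each cluster gene in the 5 lines, on human arrays and on mouse arrays. On human arrays ABCA6 differs by 2.60 in U87M2 and by -0.05 to 0.20 elsewhere, and on mouse arrays Abca9 differs by 0.86 in U87M2 and by -0.11 to 0.13 elsewhere.

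Without V-4084, the human lines differed in 4 of the 5 genes (limma F test over the 5 vehicle means), where 58.4% of all genes were called. Since the U87M2 vehicle arrays entered the choice of ABCA6, tests were read over the other 4 lines only, and U87M2 levels are a description. Over those 4 lines ABCA5 (limma adjusted p = 2.58e-14), ABCA6 (9.24e-06), ABCA10 (0.000407) and ABCA8 (0.00123) were called, against 51.1% of all genes, and ABCA9 was not (0.209).

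ABCA5 was far lower in U118 than in the other lines. Its vehicle mean was 4.13 ± 0.12 (SD, n = 3) in U118, 6.37 ± 0.28 (n = 3) in U87M2, 6.85 ± 0.15 (n = 2) in SF295, 7.06 ± 0.13 (n = 3) in U251M2 and 7.14 ± 0.35 (n = 3) in DBM2. The step from U118 to SF295 passed the test (limma adjusted p = 1.15e-11; 27.5% of all genes called). Those from SF295 to U251M2 and from U251M2 to DBM2 did not (adjusted p = 0.536 and 0.830).

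ABCA6 ranged from 4.27 ± 0.06 (SD, n = 3) in U118 through 4.61 ± 0.06 (n = 3) in DBM2 and 4.83 ± 0.13 (n = 3) in U251M2 to 5.42 ± 0.16 (n = 2) in SF295. Of these steps that from U251M2 to SF295 passed (limma adjusted p = 0.00612; 26.7% of all genes called), and the others did not (0.0685 and 0.322). The vehicle mean in U87M2 was 5.38 ± 0.20 (n = 3), near that of SF295, where the difference with V-4084 was 0.17.

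ABCA8 had another order, from 4.56 ± 0.05 (SD, n = 2) in SF295 through 4.99 ± 0.23 in DBM2 and 5.22 ± 0.40 in U118 to 5.84 ± 0.19 in U251M2 (n = 3 each), with U87M2 at 5.66 ± 0.74 (n = 3). The step from U118 to U251M2 passed (limma adjusted p = 0.0488; 32.0% of all genes called), and the steps from SF295 to DBM2 and from DBM2 to U118 did not (0.277 and 0.555). ABCA10 ran from 4.18 ± 0.04 in U118 to 4.86 ± 0.10 in U251M2 (n = 3 each), with SF295 at 4.54 ± 0.07 (n = 2), and DBM2 and U87M2 at 4.55 ± 0.20 and 4.42 ± 0.02 (n = 3 each). Its step from U118 to SF295 passed (limma adjusted p = 0.0480), and those from SF295 to DBM2 and from DBM2 to U251M2 did not (0.979 and 0.0605). ABCA9 lay between 4.75 ± 0.08 (n = 3) in DBM2 and 5.08 ± 0.10 (n = 2) in SF295. The 5 neighbours on the chromosome did not share 1 order of lines: ABCA6, ABCA10 and ABCA5 were lowest in U118, ABCA8 in SF295 and ABCA9 in DBM2.

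On the mouse arrays, 2 of the 5 mouse genes rose with V-4084 in U87M2 tumours, the line in which the human genes were high. Whether human RNA adds to the mouse Abca9 and Abca8a values in these tumours was not tested. limma called 3.72% of all mouse genes there, 2.49% as higher. Abca9 was at 7.08, 7.11 and 7.15 with vehicle and at 8.26, 7.86 and 7.80 with V-4084. Its difference was 0.86 (SE 0.16, adjusted p = 0.00196), or 1.81-fold, and all 3 treated arrays lay above all 3 vehicle arrays. It passed whichever of the 28 mouse arrays was left out, with differences from 0.71 to 0.95. In bulk tumours, a change in the number of cells of a type and a change in RNA per cell cannot be told apart.

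Abca8a was at 5.96, 5.84 and 5.72 with vehicle and at 6.29, 6.66 and 6.36 with V-4084 (0.60, SE 0.16, adjusted p = 0.0321), or 1.52-fold, with no overlap. This call was lost when any of 5 of the 6 U87M2 arrays was left out. The adjusted p was then 0.0567 without vehicle 1, 0.0721 without vehicle 2, 0.141 without vehicle 3, 0.0521 without V-4084 1 and 0.193 without V-4084 2, with differences from 0.49 to 0.67. Abca8b, its neighbouring copy, was at 4.79, 4.85 and 4.48 with vehicle and at 4.83, 5.13 and 5.28 with V-4084 (0.38, SE 0.13, adjusted p = 0.104), and its groups overlapped. It passed without V-4084 repeat 1 (0.50, adjusted p = 0.0489).

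Mouse Abca6 was at 4.79, 4.80 and 4.77 with vehicle and at 5.06, 5.16 and 4.98 with V-4084 (0.28, SE 0.10, limma adjusted p = 0.128). Abca5 was at 6.25, 6.25 and 6.24 with vehicle and at 6.42, 6.42 and 6.35 with V-4084 (0.15, SE 0.12, adjusted p = 0.629). Both sets of arrays were separated, with shifts that did not pass. In all, 4 of 5 mouse genes had treated arrays above every vehicle array, where 10.1% of all genes did, and the median difference of the 5 was 0.38 against 0.00 for all genes. The largest differences were thus in ABCA6 and ABCA8 on human arrays and in Abca9 and Abca8a on mouse arrays.

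**Figure D4:**
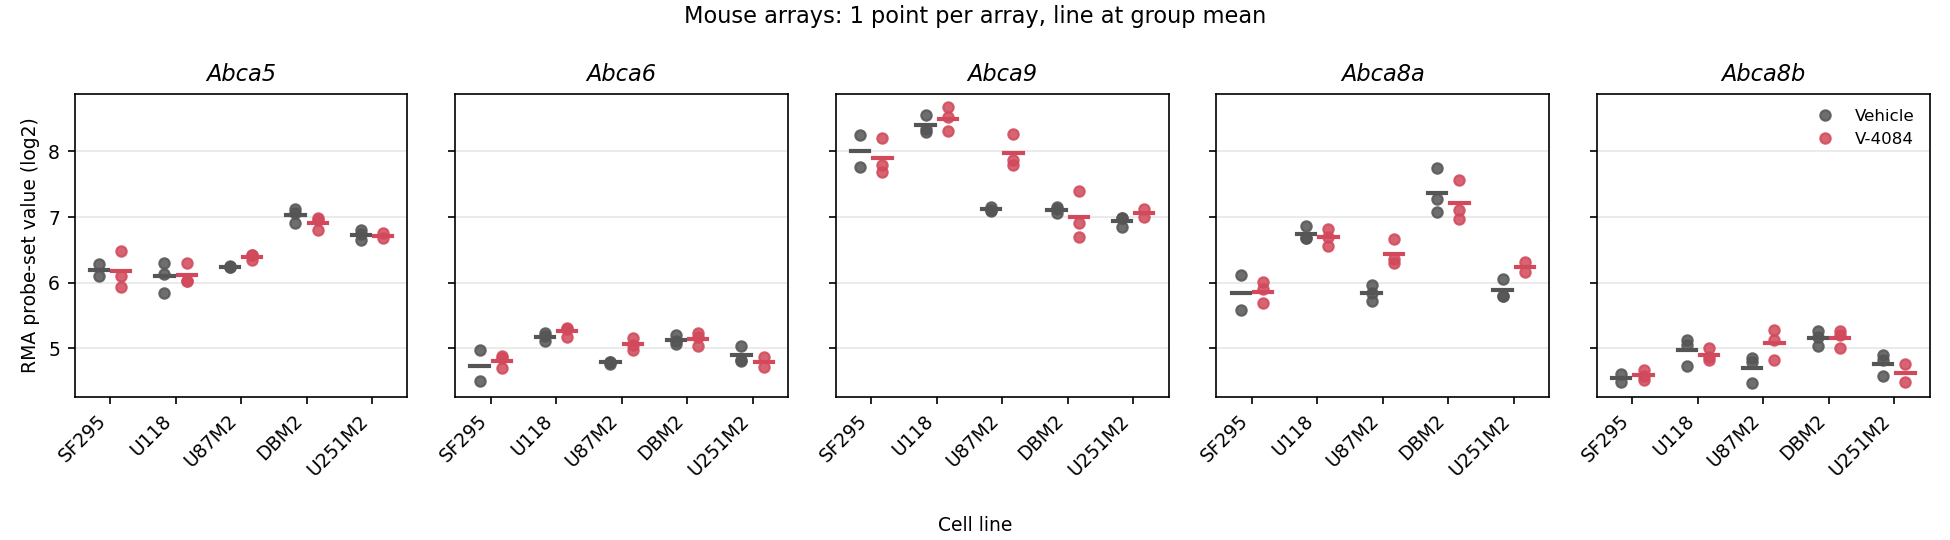
Log2 probe-set values of the 5 mouse genes, 1 panel per gene, with 1 point per array, the tumour's cell line on the horizontal axis, vehicle in grey and V-4084 in red, and a short line at each group mean. In U87M2 tumours Abca9 moves from a mean of 7.12 to 7.97 and Abca8a from 5.84 to 6.44, while in U118 tumours Abca9 is at 8.40 and 8.50.

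In tumours of the other lines, 0 of 5 mouse genes were called (limma; 0.0100% of all genes called in SF295, 0.0100% in U118, 0% in DBM2 and 0.0401% in U251M2, and 0 of 5 with an unadjusted p under 0.05 in each). In U251M2 tumours Abca8a was at 6.06, 5.80 and 5.80 with vehicle and at 6.17 and 6.32 with V-4084 (0.36, SE 0.18, adjusted p = 0.383). The arrays of Abca8a and Abca9 did not overlap there, as for 11.1% of all genes in that direction. Differences of the 5 genes ran from -0.11 to 0.07 in SF295, from -0.07 to 0.10 in U118 and from -0.15 to 0.02 in DBM2.

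Averaged over the 5 lines, 0 of 5 mouse genes were called (0.0702% of all genes called; 1 of 5 with an unadjusted p under 0.05). Abca9 had the largest average, 0.17 (SE 0.07, limma adjusted p = 0.434). The effect was not shown to differ between lines for any of the 5 genes (limma F test, 0.341% of all genes called; 2 of 5 with an unadjusted p under 0.05). The adjusted p was 0.121 for Abca9, 0.322 for Abca8a, 0.466 for Abca8b, 0.541 for Abca6 and 0.803 for Abca5. For Abca9 it was 0.0301 without DBM2 V-4084 repeat 2 and 0.0498 after quantile normalization. The rise in U87M2 tumours is therefore not shown to be particular to that line in the fit used here.

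Vehicle tumours differed between lines in 5 of 5 mouse genes, where 54.3% of all genes were called. Abca9 fell into a low and a high set of lines. Its vehicle mean was 6.94 ± 0.08 (SD, n = 3) in U251M2, 7.11 ± 0.05 (n = 3) in DBM2 and 7.12 ± 0.03 (n = 3) in U87M2, then 8.0 ± 0.35 (n = 2) in SF295 and 8.40 ± 0.14 (n = 3) in U118. The step from U87M2 to SF295 passed (limma adjusted p = 0.000555; 36.2% of all genes called), and the other neighbouring steps did not (0.661, 0.996 and 0.21). Treated U87M2 tumours, at 7.97 ± 0.25 (n = 3), lay near the level of vehicle SF295 tumours, a pair that was not tested.

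Abca8a was near 5.85 in U87M2, SF295 and U251M2 (5.84 ± 0.12, 5.85 ± 0.38 and 5.89 ± 0.15; SD, n = 3, 2 and 3), 6.75 ± 0.11 (n = 3) in U118 and 7.37 ± 0.34 (n = 3) in DBM2. Its steps from U251M2 to U118 and from U118 to DBM2 passed (limma adjusted p = 0.000338 and 0.00565; 35.1% and 26.7% of all genes called). Abca5 ran from 6.10 ± 0.23 in U118 to 7.04 ± 0.11 in DBM2 (n = 3 each), and its only neighbouring step past the test was from U87M2 to U251M2 (0.0133; 5.56% of all genes called). U118 and DBM2 also had the lowest and highest ABCA5 means on human arrays. The step from U251M2 to DBM2 did not pass there (limma adjusted p = 0.830), nor did that from U118 to SF295 on mouse arrays (0.775). Whether human RNA adds to the mouse Abca5 values was not tested.

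Abca6 lay between 4.74 ± 0.33 (SD, n = 2) in SF295 and 5.18 ± 0.06 (n = 3) in U118, and Abca8b between 4.55 ± 0.09 (n = 2) in SF295 and 5.15 ± 0.11 (n = 3) in DBM2. No neighbouring step passed for either gene (limma adjusted p from 0.218 to 0.743 and from 0.211 to 0.879). Human ABCA6, in contrast, was lowest in the U118 cells and highest in SF295.

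Human arrays were set beside the mouse arrays that carry the same line, treatment and number for 5 pairs of counterpart genes, as deviations from the group means over 27 pairs of arrays. Nothing in the labels but the number ties such arrays together, so the values are a description from which nothing is read about host and tumour. Pearson's r was 0.045 for ABCA6 with Abca6 (permutation p = 0.861; Spearman's rho -0.038, p = 0.89), 0.102 for ABCA5 with Abca5 (p = 0.621; rho 0.101, p = 0.686) and -0.070 for ABCA9 with Abca9 (p = 0.764; rho -0.044, p = 0.85). ABCA8 gave -0.162 with Abca8a (permutation p = 0.346; rho -0.258, p = 0.197) and -0.355 with Abca8b (p = 0.22; rho -0.251, p = 0.332). The Benjamini-Hochberg adjusted p was 0.861 for each of the 5 pairs. Without the 2 farthest arrays r was -0.033 for ABCA6, 0.060 for ABCA5, -0.151 for ABCA9, and -0.166 and -0.141 for ABCA8 with Abca8a and Abca8b. The values were not stable: r for ABCA9 was -0.426 after quantile normalization, and r for ABCA8 with Abca8b was -0.659 over 14 vehicle pairs and 0.461 over 13 V-4084 pairs.

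Outside the cluster, ABCA1 was the only other ABCA transporter called with V-4084 in U87M2, on both platforms. Of 7 other human ABCA genes measured, 1 rose and 0 fell in U87M2 (15.0% of all genes called, 5.37% as higher), and the median difference was 0.11. ABCA1 went from 7.23 ± 0.36 to 8.22 ± 0.32 (SD, n = 3 each; limma adjusted p = 0.000113). Of 11 other mouse ABCA genes, 1 rose and 0 fell in U87M2 tumours (2.49% of all genes called as higher), with a median of 0.09. Abca1 differed by 1.31 (SE 0.11, adjusted p = 3.21e-07), its average over the 5 lines was 0.33 (SE 0.05, adjusted p = 0.0204), and its effect differed between lines (F test adjusted p = 0.000152).

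Among 8 listed lipid transporters of the ABCB, ABCD and ABCG families, 7 were measured on each platform. In U87M2, 1 of 7 rose on human arrays, ABCD4, a lysosomal transporter of vitamin B12 (0.34, SE 0.10, limma adjusted p = 0.0222). On mouse arrays 1 of 7 rose, Abcg2, a multidrug and urate exporter (0.63, SE 0.11, adjusted p = 0.0016). In U87M2, 15.0% of all human genes (5.37% as higher) and 3.72% of all mouse genes (2.49% as higher) were called. Of the 8 mouse counterparts of the cluster's chromosomal neighbours, 0 rose and 1 fell, Kcnj2, a potassium channel (-0.99, SE 0.24, adjusted p = 0.0192), and their median was -0.02. Thus the mouse neighbours had no shared rise beside that of Abca9 and Abca8a.

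FOXO1, FOXO3 and FOXO4, forkhead factors that kinase signalling through AKT keeps out of the nucleus, did not pass the test of V-4084 against vehicle in any line on either platform. In U87M2 human cells the differences were 0.08 for FOXO1, -0.10 for FOXO3 and 0.23 for FOXO4 (limma adjusted p = 0.738, 0.737 and 0.521). In U87M2 tumours they were 0.27 for Foxo1, -0.01 for Foxo3 and 0.08 for Foxo4 (0.177, 0.975 and 0.780). These are RNA levels, and the factors' location and activity were not measured.

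Fibroblast markers moved with the cluster in U87M2. On human arrays 8 of 11 rose and 0 fell, where 5.37% of all genes were called as higher. They included the matrix proteoglycans DCN (1.97, SE 0.15, limma adjusted p = 3.73e-10) and LUM (1.75, SE 0.20) and the fibrillar collagen gene COL3A1 (1.34, SE 0.16). The mean of the 11 was between 8.17 and 8.53 on vehicle arrays and between 9.17 and 9.24 on V-4084 arrays, and 0 of 11 were called in each of the other 4 lines. The human arrays are labelled as a tumour line in culture. Whether all RNA on them came from the cultured line was not tested. On mouse arrays 1 of 11 rose in U87M2 tumours, Fbln1 (0.65, SE 0.16, adjusted p = 0.0154), where 2.49% of all genes were called as higher. All 11 differences were above 0, the median was 0.46, and the list mean ran from 7.99 to 9.0 with vehicle and from 8.61 to 9.18 with V-4084. In U251M2 tumours, where no cluster gene was called, all 11 differences were also above 0 (median 0.38, 0 called). The part of these markers in the values of the cluster genes was not tested.

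Macrophage markers stood beside Abca9 on the mouse arrays. In U87M2 tumours 2 of 7 rose and 0 fell with V-4084, Csf1r, the receptor for the macrophage growth factor CSF1 (0.52, SE 0.13, limma adjusted p = 0.0213), and Adgre1, which encodes F4/80 (0.45, SE 0.11, adjusted p = 0.0182). Of the 7 differences 5 were above 0 (median 0.22), and 2.49% of all genes were called higher there. The mean of the 7 markers ran from 8.29 to 8.35 with vehicle and from 8.27 to 8.74 with V-4084. In vehicle tumours the list mean was 7.76 in DBM2, 7.89 in U251M2, 8.32 in U87M2, 9.04 in SF295 and 9.06 in U118, so the 2 lines with high Abca9 were also those with high macrophage markers. This was not particular to macrophage markers. The adipocyte list mean was also highest in U118 (8.24) and SF295 (6.96), against 6.71 in U87M2, 6.68 in DBM2 and 6.68 in U251M2, while the fibroblast list mean was highest in DBM2 (9.09). DBM2 and U87M2, unlike in macrophage markers, had like Abca9 means (7.11 and 7.12). Of the adipocyte markers 8 of 8 had differences above 0 in U87M2 tumours and 0 were called (median 0.62; list mean 6.33 to 7.10 with vehicle and 6.66 to 7.65 with V-4084). Of 10 skeletal muscle markers 0 were above 0 and 0 were called (median -0.59; list mean 6.86 to 7.82 with vehicle and 6.62 to 6.84 with V-4084). Of 8 endothelial markers 2 rose, Vwf (0.55) and Tek (0.43), and 1 fell, the tight-junction gene Cldn5 (-1.05, limma adjusted p = 8.81e-05; median of the 8 0.06; list mean 8.74 to 8.86 with vehicle and 8.67 to 8.96 with V-4084). The effect on Cldn5 also differed between lines (F test adjusted p = 0.0116). Of 8 glial and neural markers 1 fell, Nes (-0.84, adjusted p = 0.0169). Marker shifts were not confined to U87M2 tumours. In U118 tumours 7 of 8 adipocyte markers (median 0.62) and 0 of 10 muscle markers (median -1.70) had differences above 0, and in U251M2 tumours 7 of 7 macrophage markers did (median 0.18), with 0 called in each. The part of these cell types in the mouse values was not tested.

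Other markers called in U87M2 human cells were the endothelial genes EMCN, which rose (1.07, SE 0.15, limma adjusted p = 7.81e-06), and PECAM1 and TEK, which fell (-0.87 and -0.48), and the macrophage gene CD68, which fell (-0.78, SE 0.11). No adipocyte, muscle or glial marker was called there, where 15.0% of all genes were called.

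Likeness was ranked with predicted and unnamed genes, olfactory receptors, antisense genes and small RNA genes left out. Among the other human genes, those whose values ran most like ABCA6 over the 28 arrays were CYP1B1, a cytochrome P450 (Pearson's r = 0.962), UTS2B, a urotensin peptide (0.933), ABCA9 (0.915), SCN7A, a sodium channel (0.913), NRIP2 (0.906) and the histone gene H2BC21 (0.903). These arrays include the U87M2 arrays on which ABCA6 was chosen. Over the 22 arrays without U87M2, r was 0.756 for CYP1B1, 0.670 for UTS2B, 0.472 for ABCA9, 0.806 for H2BC21, 0.094 for SCN7A and 0.011 for NRIP2. The likeness of SCN7A and NRIP2 to ABCA6 was thus near 0 outside U87M2. Within the cluster, r over the 28 arrays was 0.806 for ABCA8 with ABCA9, 0.793 for ABCA6 with ABCA8, 0.658 for ABCA6 with ABCA10, 0.345 for ABCA5 with ABCA6 and 0.049 for ABCA5 with ABCA8. Taken within groups, as deviations from the group means, r was 0.359, 0.504, 0.498, -0.266 and -0.142 for the same pairs, and 0.272 for ABCA6 with ABCA9. These values share arrays and normalization and are a description.

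Over the 28 mouse arrays, with the same kinds of genes left out, the genes most like Abca6 were Enpp3, an ectonucleotidase (r = 0.853), the tight-junction gene Cldn1 (0.823), Tbc1d4 (0.809), Jam2, a junctional adhesion molecule (0.798), Abca8a (0.781) and Npr1, a natriuretic peptide receptor (0.780). Without U87M2 they kept their likeness where given, at 0.858 for Enpp3, 0.757 for Abca8a and 0.871 for Npr1. Over these arrays r was 0.762 for Abca8a with Abca8b and -0.692 for Abca5 with Abca9. Both rest on differences between groups: within groups r was 0.236 for Abca8a with Abca8b and 0.359, of the other sign, for Abca5 with Abca9, while Abca6 with Abca8a gave 0.561. Slc9a9, a sodium-proton exchanger of endosomes, was like Abca9 (r = 0.960, and 0.975 without U87M2), and Lama2, a laminin chain, was like Abca8a (0.919, and 0.970). These last 2 genes were chosen after their values were seen.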

How the data were processed

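RNA was measured on 28 human and 28 mouse Affymetrix whole-transcript arrays. The authors deposited 1 log2 intensity per probe set and array; RMA and Partek are named in the submitters' processing notes, without versions. RMA background-corrects and quantile-normalizes arrays together, so log2 values are relative and signal over background was not analysed. Probe sets with several gene names or none were not used (1754 and 12083 of 33297 human; 1621 and 12146 of 35556 mouse), and the probe set with the highest mean stood for a gene.

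A mean per line and treatment (10 groups per platform) was fitted with limma 3.58.1 in R 4.3.3 (lmFit, eBayes), two-sided, with Benjamini-Hochberg adjustment over all genes of a contrast. Genes with adjusted p under 0.05 were called. The fit was tested on simulated data with independent noise for each gene and no narrow-spread arrays. That test therefore does not cover the effect of such arrays. Permutation tests used scipy 1.17.1 and 100000 resamples. Repeat numbers were not used to pair vehicle with V-4084 arrays in this fit. Promoter windows and coordinates came from RefSeq tables (GRCh38.p14).

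The genes, marker lists and tests were chosen with earlier results of these data known. The text names all cluster genes, FOXO1, FOXO3 and FOXO4, up to 3 genes per list with the smallest p among those called with V-4084, and the 6 genes most like ABCA6 and Abca6; Slc9a9 and Lama2 are outside this rule. Alternatives were quantile normalization, trend and robust eBayes, the repeat number as a block, leaving out dim genes (lowest 25% by mean), averaging probe sets, and leaving out DBM2, the 3 narrow-spread arrays or each array. The number of arrays limits the precision.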

Additional observations from a re-analysis of the deposited data

Results flagged for a closer look

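The ABCA5 difference with V-4084 had opposite signs in different human lines. Every V-4084 array lay above every vehicle array in SF295 (difference 0.29 on the log2 scale, n = 2 and 2; 12.3% of all genes separated that way). The same held in U87M2 (0.33, n = 3 and 3; 18.0% of all genes), the contrast on which ABCA6 was chosen. Every V-4084 array lay below every vehicle array in U251M2 (-0.31, n = 3 and 3; 6.99% of all genes). ABCA5 passed the test in neither SF295 nor U251M2, and the difference between lines was not tested.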

How the results depend on the processing

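Leaving aside the settings that drop 1 array, of 82 counts of cluster genes under another setting, 79 stayed within 1.5 times the count reported. Under the same settings, 349 of 350 values of single genes with a test kept their side of the threshold. The exception was Abca9 in the test between lines (below). Direction could change for small differences that did not pass, as for ABCA6 in SF295 and DBM2 without the 3 narrow-spread arrays. Leaving out dim genes lowered the vehicle counts to 1 on human arrays (from 4) and 3 on mouse arrays (from 5), because that filter removes ABCA6, ABCA8, ABCA9 and ABCA10, and Abca6 and Abca8b, before the test. After quantile normalization 1 mouse gene (from 0), Abca9, differed in effect between lines (adjusted p = 0.0498); the cause was not tested. Leaving out each array gave 0 to 1 genes called in human DBM2 and in the mouse test between lines, and 1 to 2 in mouse U87M2. Human SF295 is not counted here, because dropping an array of that line leaves a group with a single array.

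The background counts moved more. For the human average (53 genes) they were 14 with quantile normalization, 115 with trend and robust eBayes, 0 with the repeat number as a block, 146 without dim genes, 101 with averaged probe sets, 0 without DBM2 and 0 to 1369 over arrays left out. For human U118 (139) they were 30 with the block, 608 without the narrow-spread arrays and 2 to 265 over arrays left out; for human DBM2 (0) 0 to 4537 and for SF295 (0) 0 to 1918. For the mouse test between lines (68) they were 133 with quantile normalization, 19 with the block and 22 to 89; for mouse U251M2 (8) 3 with quantile normalization, 3 with trend and robust eBayes, 0 with the block, 0 with averaged probe sets and 0 to 53. For mouse SF295 (2) they were 1 with the block, 1 without dim genes and 2 to 9; for mouse U118 (2) 1 with quantile normalization, 0 without dim genes and 0 to 18; for the mouse average (14) 9 with averaged probe sets and 0 to 28; for mouse U87M2 (741) 372 to 842.

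Same-numbered vehicle and V-4084 arrays had correlated deviations over 0.1 in 3 of 14 human pairs (-0.520 to 0.318) and 3 of 13 mouse pairs (-0.349 to 0.297). In all, 8 of 24 human and 4 of 18 mouse arrays correlated best with their own number, when each had 3 candidate arrays to match. The human lines were uneven in this: 5 of 6 arrays did so in U87M2, 3 of 6 in U118, 0 of 6 in DBM2 and 0 of 6 in U251M2. Pairing in human U87M2 is therefore not settled. The block changed no count of cluster genes. In U87M2 human cells, leaving out each array of the line gave 2.51 to 2.71 for ABCA6 and 0.17 to 0.45 for ABCA5.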
